A study of Mus musculus with 6 samples.

Results

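Fos, Fosb, Jun, Junb, Jund, Egr1, Ier2, Nr4a1, Atf3 and Dusp1 are described here in αβ T cells sorted from mouse kidney. They are 10 of the 32285 genes listed in the deposited tables, were found there by symbol, and were followed gene by gene in each library and as a sum in each cell. The first 9 encode transcription factors or nuclear proteins of the immediate early response, and Dusp1 encodes a phosphatase that ends the signal. Ischemic kidney (IR) and normal kidney (control) were compared within CD4+, CD8+ and double-negative (DN, CD4-/CD8-) T cells. Every animal was a wild-type male C57BL/6J mouse aged 7 to 8 weeks. In the IR group both renal pedicles had been clamped for 30 min and then released, and the labels call the controls normal, with no sham operation named. Each of the 6 groups was 1 library, so no difference below has a replicate check, no test was run, and intervals cover counting error only. The sources used here give neither the number of mice per library nor the time after reperfusion at which these T cells were taken. The 3 subsets of a condition were sorted from its αβ T cells and may come from the same mice, so the 3 libraries of a condition are not independent samples of it.

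Immediate early genes are switched on within minutes of a stimulus, without new protein being made first. Kinases of the MAP kinase cascades activate factors that are already present, such as SRF with its ELK partners and CREB, and these drive short bursts of transcription. FOS and JUN proteins pair into AP-1, which acts together with NFAT when a T cell sees antigen. The messages are short-lived, and the response carries its own brakes, among them Dusp1. The genes answer to stress and to the handling of tissue as well as to antigen. The protocol given for all 6 libraries digested the kidneys with warm collagenase D before the sort, and the part of this step in the levels was not tested.

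The start regions of 4 of the genes are shown first, because their sequences hold the full DNA element through which CREB acts (Dusp1) or its core letters (Nr4a1, Junb and Fos). Promoter entries of 300 bases, from 250 before to 50 after the start, were used for 8 of the 10 genes (RefSeq, GRCm38.p6). The full cyclic AMP response element (CRE) was searched as TGACGTCA and its shorter core site as TGACG, on both strands; a full element holds a core site on each strand. The core site was in 6 of the 8 windows (Fos, Fosb, Junb, Nr4a1, Atf3 and Dusp1), and in 20.8% of all 32851 promoter windows of the same length. The full element was in 1 of the 8, that of Dusp1, and in 1.79% of all windows. Dusp1, Nr4a1 and Junb are printed because their levels were at least 2-fold higher in all 3 IR libraries, and Fos as a gene with core sites that stayed below 2-fold. Capitals mark the core sites in either orientation, which read TGACG or CGTCA, and the full element.
Dusp1, chr17:26508423-26508722, minus strand: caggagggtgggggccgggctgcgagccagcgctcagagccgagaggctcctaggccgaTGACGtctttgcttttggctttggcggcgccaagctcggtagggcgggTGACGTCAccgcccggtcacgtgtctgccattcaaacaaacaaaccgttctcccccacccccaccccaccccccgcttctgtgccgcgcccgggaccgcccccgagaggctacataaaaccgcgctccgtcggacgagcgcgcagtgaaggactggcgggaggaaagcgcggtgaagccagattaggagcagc
Nr4a1, chr15:101266596-101266895, plus strand: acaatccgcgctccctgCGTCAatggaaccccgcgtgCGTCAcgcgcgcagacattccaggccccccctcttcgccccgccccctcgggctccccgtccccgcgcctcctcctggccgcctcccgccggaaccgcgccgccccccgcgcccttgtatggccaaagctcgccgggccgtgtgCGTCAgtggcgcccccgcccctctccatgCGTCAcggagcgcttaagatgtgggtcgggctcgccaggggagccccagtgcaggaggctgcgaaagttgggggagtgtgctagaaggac
Junb, chr8:84978699-84978998, minus strand: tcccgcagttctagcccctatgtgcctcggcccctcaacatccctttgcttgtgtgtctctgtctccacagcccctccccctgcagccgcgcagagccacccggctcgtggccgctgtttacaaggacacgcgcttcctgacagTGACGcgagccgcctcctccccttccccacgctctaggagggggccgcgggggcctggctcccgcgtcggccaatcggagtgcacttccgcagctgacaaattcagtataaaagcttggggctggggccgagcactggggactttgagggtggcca
Fos, chr12:85473640-85473939, plus strand: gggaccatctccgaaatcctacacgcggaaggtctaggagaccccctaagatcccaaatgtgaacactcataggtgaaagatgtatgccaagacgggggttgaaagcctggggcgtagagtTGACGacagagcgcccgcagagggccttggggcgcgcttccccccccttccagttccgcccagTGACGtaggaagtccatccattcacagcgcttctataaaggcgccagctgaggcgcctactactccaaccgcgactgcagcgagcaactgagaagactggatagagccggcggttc
In Dusp1 the full element lay at -143 to -136 from the start and a further core site at -191 to -187. Nr4a1 had 4 core sites, the nearest at -40 to -36, Fos had 2 and Junb had 1. An AP-1 site, searched as TGANTCA on both strands, was in none of the 8 windows and in 7.81% of all windows. The CArG box, which SRF binds, was also in none of the 8, and in 1.63% of all windows. No window was used for Egr1 or Ier2, and a site more than 250 bases before the start would be missed. Absence from these windows therefore does not show that a gene lacks the site. An EGR site, searched as GCGNGGGCG on both strands, was in the windows of Fosb and Nr4a1 and in 5.55% of all windows. The RefSeq start of Jund lay 1210 bp from the nearest annotated transcript start in GENCODE, so its window may miss the start in use. A match is a run of letters and not a measured binding site.

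After filtering, 47938 cells were analysed, with 8898 to 9304 cells in the control libraries and 4042 to 10108 in the IR libraries. The IR libraries were shallower, with a median of 934.5 to 1425 UMIs (unique molecular identifiers, each standing for 1 captured RNA molecule) per cell against 4960 to 6564.5 in the control libraries. Mitochondrial genes, ribosomal protein genes and Malat1 were left out of the totals, and took 30.5% to 45.3% of UMIs in the IR libraries against 21.02% to 26.6% in the controls. The control matrices carry Cell Ranger 5.0.1 in their headers and the IR matrices 6.0.1, so condition and software version cannot be told apart. The sorted subsets carried their markers: Cd4 was at 210 and 146 CPM in the CD4 libraries and at most 0.466 CPM elsewhere, and the summed CD8 genes were at 2238 and 1495 CPM in the CD8 libraries and at most 6.27 CPM elsewhere. Levels are in CPM, the UMIs of a gene in all cells of a library brought to a common library total of retained genes. A library shares 26 to 54 of its barcodes with another library.

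Of the 10 genes, 5 were at least 2-fold higher in IR than in control in CD4 cells, where 7.72% of 9036 genes were. They were Junb, Ier2, Nr4a1, Atf3 and Dusp1. In CD8 cells 4 of 10 passed the same limit, against 7.93% of 9110 genes, and in DN cells 4 of 10, against 8.31% of 9201 genes. These were Junb, Ier2, Nr4a1 and Dusp1 in both subsets. No member was at least 2-fold lower in any subset, where 15.1%, 17.7% and 11.3% of all genes were (CD4, CD8 and DN). The median log2 ratio of the 10 genes, IR over control, was 1.06 in CD4, 0.96 in CD8 and 0.95 in DN, beside medians of -0.26, -0.38 and -0.26 over all genes tested. A gene was counted when it differed at least 2-fold and reached 10 CPM in the higher library, a level that all 10 genes had in all 6 libraries. In 6 of the 10 genes (Fos, Junb, Jund, Ier2, Nr4a1 and Dusp1) all 3 IR libraries lay above all 3 control libraries, as they did in 18.9% of 9661 genes.

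**Figure D1:**
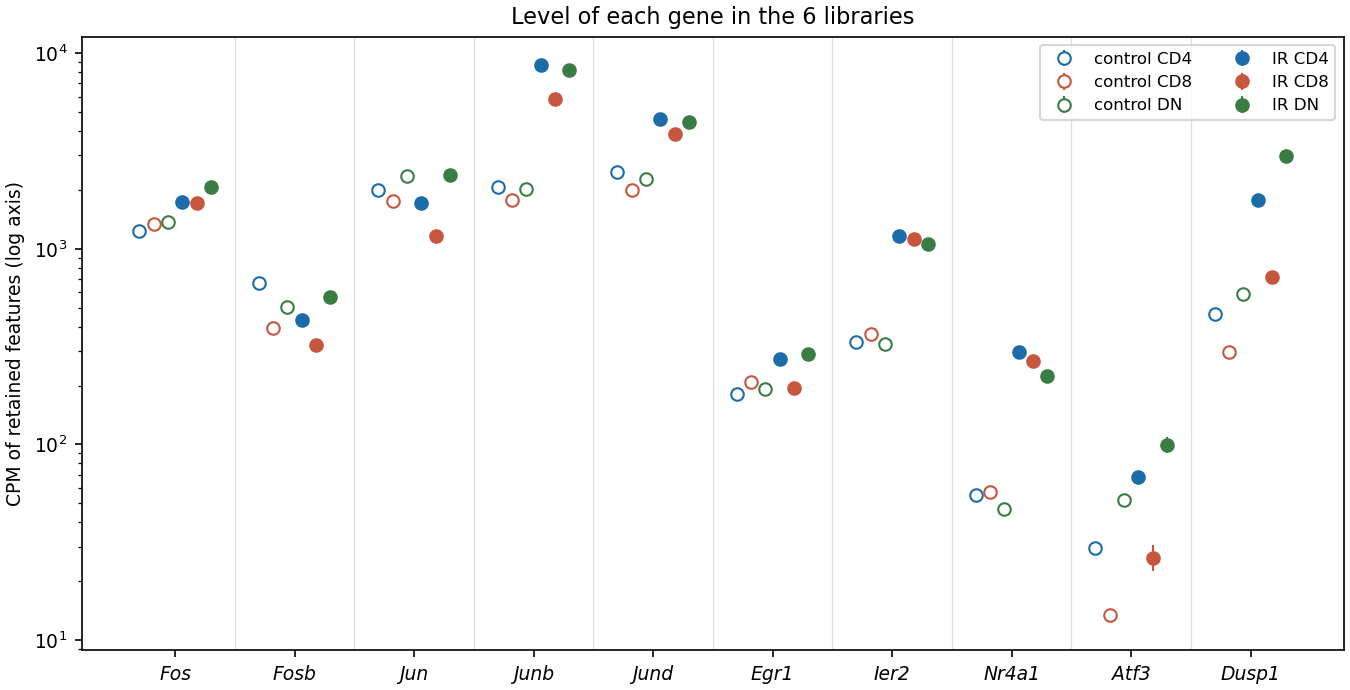
Level of each gene in CPM of the retained genes (vertical log axis) in the 6 libraries, with open points for control and filled points for IR and exact 95% Poisson intervals that are mostly smaller than the points. Junb, Ier2, Nr4a1 and Dusp1 sit higher in all 3 IR libraries, and Fosb and Jun do not.

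Ratios of IR over control fell with the intronic length of a gene in all 3 subsets. Genes with under 2000 bp of intronic sequence had a median log2 ratio of 0.45 in CD4, 0.16 in CD8 and 0.31 in DN, and those with over 100000 bp had -0.98, -0.85 and -0.68. Of the genes with under 2000 bp, 22.9%, 17.4% and 17.9% were at least 2-fold higher in IR. Most of the 10 genes are short: Jun, Jund and Ier2 have no intron in GENCODE M21, and Fos, Fosb, Junb and Egr1 have 678 to 1934 bp. Each ratio is therefore also given after subtracting the median of genes with a like transcript span, a comparison chosen after seeing the data. Dusp1 is annotated with 53228 bp of intronic sequence, but its median transcript spans 2907 bp, and the span was used for this reason. What part gene structure has in any single ratio was not tested. Keeping the removed genes in the totals moved the median ratio of all genes by -0.36 in CD4, -0.42 in CD8 and -0.18 in DN, and every gene by the same amount.

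Among the FOS proteins, which can join AP-1 only by pairing with a JUN protein, Fos was somewhat higher in IR in all 3 subsets, whereas Fosb was lower in CD4 and CD8 and slightly higher in DN. Fos (chromosome 12, 85473890 to 85477273) was at 1234, 1334 and 1370.3 CPM in control CD4, CD8 and DN cells and at 1724, 1719.9 and 2071 CPM in IR. All 3 IR libraries were above the controls, and IR CD4 and IR CD8 had overlapping intervals. The log2 ratio of IR over control was 0.48 in CD4 (95% interval 0.46 to 0.50), 0.37 in CD8 (0.34 to 0.40) and 0.60 in DN (0.56 to 0.63), all below 2-fold. Set against genes of like span, these became -0.03, 0.14 and 0.21. With the removed genes kept in the totals, Fos in CD8 was at -0.06.

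Fosb (chromosome 7, 19302696 to 19310051) was at 671, 394 and 503 CPM in control CD4, CD8 and DN cells and at 433, 324 and 567 CPM in IR. Control CD4 had the highest level and IR CD8 the lowest, and the conditions overlapped. On the log2 scale the ratio was -0.63 in CD4 (-0.67 to -0.59), -0.28 in CD8 (-0.35 to -0.22) and 0.17 in DN (0.11 to 0.23). Against genes of like span the ratios were -0.48, 0.03 and 0.33. The DN value was -0.002 with the removed genes kept and -0.11 after centring by intronic length. In CD4 centring by intronic length gave -1.06, past 2-fold.

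The 3 JUN genes, whose proteins pair with each other as well as with FOS, went apart. Jun (chromosome 4, 95049034 to 95052222), the strongest activator of the family, was at 2001, 1756 and 2346 CPM in control CD4, CD8 and DN cells. In IR it was at 1712, 1164 and 2384 CPM. The 2 DN libraries had the highest levels, with overlapping intervals, and IR CD8 had the lowest. Its log2 ratio was -0.22 in CD4 (-0.24 to -0.21), -0.59 in CD8 (-0.63 to -0.56) and 0.02 in DN (-0.006 to 0.05). Against genes of like span it was -0.43, -0.57 and -0.07. With the removed genes kept, the CD8 value was -1.02, past 2-fold, and the DN value was -0.15.

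Junb (chromosome 8, 84974484 to 84978718), which can oppose Jun at AP-1 sites, was at 2077, 1776 and 2019 CPM in control CD4, CD8 and DN cells. In IR it was at 8690.2, 5838 and 8232 CPM. Each IR library was above all controls, and IR CD8 was the lowest of the 3. IR over control gave a log2 ratio of 2.06 in CD4 (2.05 to 2.08), 1.72 in CD8 (1.70 to 1.73) and 2.03 in DN (2.01 to 2.04). Against genes of like span it was 1.85, 1.76 and 1.96, and under all alternatives together it lay between 1.29 and 2.10. Per cell the share with a Junb UMI was also higher: after each cell was thinned to 500 UMIs, 56.4%, 52.0% and 54.4% of control CD4, CD8 and DN cells had one, and 92.7%, 86.4% and 92.2% of IR cells. Before thinning the shares were 94.4%, 89.8% and 95.8% in control and 98.4%, 94.4% and 96.9% in IR.

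Jund (chromosome 8, 70698949 to 70700616), which is expressed more steadily than the rest of the family, was at 2468, 1991 and 2266 CPM in control CD4, CD8 and DN cells. In IR it was at 4625, 3850.3 and 4425 CPM, above all controls in each library. As a log2 ratio this was 0.91 in CD4 (0.89 to 0.92), 0.95 in CD8 (0.93 to 0.97) and 0.97 in DN (0.94 to 0.99), just short of 2-fold. In CD8 it passed 2-fold under TMM scaling (1.05), after thinning (1.04) and as a mean over cells (1.03). In DN, of the alternatives run, it passed 2-fold after thinning alone (1.002). Against genes of like span the ratios were 0.39, 0.72 and 0.58.

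Atf3 (chromosome 1, 191170296 to 191218039) encodes a stress-induced member of the ATF/CREB family that can pair with JUN proteins. It was at 29.6, 13.4 and 52.2 CPM in control CD4, CD8 and DN cells and at 68.4, 26.2 and 99.4 CPM in IR. The IR level was higher in each subset, and DN cells had the highest level in each condition, so that control DN lay above IR CD8. The log2 ratio of IR over control was 1.21 in CD4 (1.09 to 1.32), 0.97 in CD8 (0.72 to 1.22) and 0.93 in DN (0.78 to 1.07). The call in CD4 was lost with the removed genes kept (0.85), and against genes of like span the value was 1.45. In CD8 and DN the ratio passed 2-fold with the non-T barcodes kept (1.24 and 1.02) and against genes of like span (1.34 and 1.20), and centring by intronic length gave 1.59 in CD8. The IR CD8 value rests on 169 UMIs, and after thinning 0.963% of IR CD8 cells had an Atf3 UMI.

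**Figure D2:**
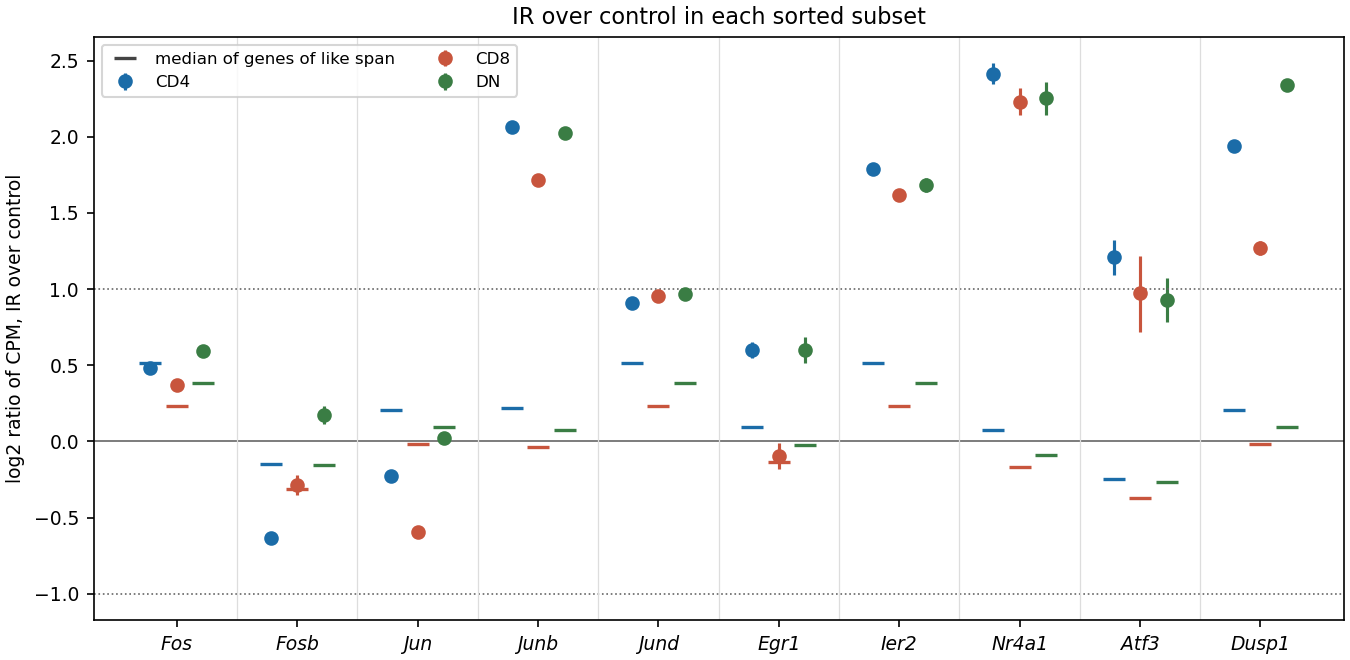
Log2 ratio of CPM, IR over control, for each gene (vertical axis) in CD4, CD8 and DN cells, with 95% intervals for counting error. Horizontal dashes give the median ratio of all genes with a like transcript span, and dotted lines mark 2-fold. Nr4a1, Junb, Ier2 and Dusp1 lie above 2-fold in all 3 subsets.

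Egr1 is a zinc finger factor that ERK signalling induces through SRF. It was at 181, 208 and 191 CPM in control CD4, CD8 and DN cells and at 274, 194 and 290 CPM in IR. The IR CD4 and IR DN libraries were higher than the rest, whereas the interval of the IR CD8 level overlapped those of control CD8 and control DN. The log2 ratio of IR over control was 0.60 in CD4 (0.55 to 0.65), -0.10 in CD8 (-0.18 to -0.01) and 0.60 in DN (0.52 to 0.68). In CD8 the sign changed under TMM scaling (0.003), after thinning (0.08), as a mean over cells (0.01) and against genes of like span, where the ratios were 0.51, 0.04 and 0.62.

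Ier2 (chromosome 8, 84661331 to 84662852) encodes a short nuclear protein of the early response. It was at 335, 365 and 328 CPM in control CD4, CD8 and DN cells and at 1157, 1119 and 1055 CPM in IR. The 3 IR libraries were alike and lay far above the controls, and the intervals of IR CD4 and IR CD8 overlapped. On the log2 scale the ratio was 1.79 in CD4 (1.76 to 1.82), 1.62 in CD8 (1.58 to 1.66) and 1.69 in DN (1.64 to 1.73). It was 1.27, 1.39 and 1.30 against genes of like span. After thinning, 14.1%, 16.0% and 14.5% of control cells and 40.4%, 40.3% and 37.7% of IR cells had an Ier2 UMI. Before thinning the shares were 64.0%, 60.7% and 72.2% against 71.3%, 59.3% and 57.4%, so that the order of control and IR depended on depth in CD8 and DN.

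Nr4a1 (chromosome 15, 101254269 to 101274795) encodes the orphan nuclear receptor NUR77, which T cell receptor signalling induces. It was at 55.4, 56.9 and 47.0 CPM in control CD4, CD8 and DN cells and at 295, 267 and 224 CPM in IR. IR CD4 had the highest level and DN cells the lowest in each condition. Its log2 ratio was 2.41 in CD4 (2.35 to 2.48), 2.23 in CD8 (2.14 to 2.32) and 2.25 in DN (2.15 to 2.36), higher than 96.6% to 98.7% of all genes tested. Against genes of like span it was 2.34, 2.40 and 2.34. After thinning, 2.26%, 2.87% and 2.10% of control cells and 12.8%, 11.5% and 8.21% of IR cells had an Nr4a1 UMI, beside 19.4%, 17.8% and 18.6% against 28.2%, 20.4% and 16.4% before thinning.

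Dusp1 (chromosome 17, 26505590 to 26562128) encodes MKP-1, a nuclear phosphatase that switches off p38, JNK and ERK. It was at 465, 296 and 586 CPM in control CD4, CD8 and DN cells and at 1782, 714 and 2970.3 CPM in IR. DN cells had the highest level in each condition and CD8 cells the lowest, and no intervals of neighbouring levels overlapped. From control CD8 to IR DN the range was 10.03-fold, the widest of the 10 genes. IR over control gave a log2 ratio of 1.94 in CD4 (1.91 to 1.96), 1.27 in CD8 (1.22 to 1.32) and 2.34 in DN (2.31 to 2.37). Against genes of like span it was 1.73, 1.29 and 2.25, and centred by the annotated intronic length 2.58, 1.94 and 2.86. In CD8 the call was lost with the removed genes kept in the totals (0.85). After thinning, 18.2%, 13.3% and 23.1% of control cells of the 3 subsets had a Dusp1 UMI, against 47.7%, 27.7% and 67.5% of IR cells. Before thinning the shares were 67.2%, 51.2% and 78.2% against 72.9%, 42.4% and 84.1%. The study named Dusp1 for DN cells from these same libraries, so its level in DN cells is not independent evidence.

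No cell type in the sort is known to lack these genes, so the shares were set beside those of 339 barcodes from the 2 clusters removed as non-T, in which 17.6% and 12.7% of barcodes had a Cd3 UMI, thinned in the same way. Of these, 26.5% had a Junb UMI (21.9 to 31.6), 12.4% a Dusp1 UMI, 7.37% an Ier2 UMI and 5.01% an Nr4a1 UMI, at a median depth of 1255 UMIs. Of these barcodes 303 came from IR libraries. The IR T cells lay above these shares for all 4 genes. The control T cells also lay above them for Junb (52.0% to 56.4%), Ier2 (14.1% to 16.0%) and Dusp1 (13.3% to 23.1%). For Dusp1, control CD8 was within the non-T interval (9.08 to 16.4). The control T cells lay below the Nr4a1 share (2.95 to 7.91). Atf3 and Egr1 were detected in 10.3% (7.30 to 14.1) and 15.04% (11.4 to 19.3) of the non-T barcodes, above each T cell library (0.527% to 3.69% for Atf3 and 7.80% to 11.6% for Egr1). Fos was detected in 38.3% of the non-T barcodes and in 37.3% to 51.8% of T cells across the 6 libraries.

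The subsets were next compared within a condition. No member was at least 2-fold higher or lower in DN than in both CD4 and CD8 cells, in control or in IR. Of all genes, 0.818% were higher and 0.917% lower in control DN, and 1.52% and 1.65% in IR DN. Against CD8 cells alone, Atf3 was at least 2-fold higher in control DN (log2 ratio 1.96), where 3.55% of genes were. In IR, Atf3 (1.92), Dusp1 (2.06) and Jun (1.03) passed 2-fold upward in DN over CD8, where 7.74% of genes did. The Jun interval (0.99 to 1.08) spanned the limit, and its call was lost under TMM scaling (0.88), after thinning (0.95), as a mean over cells (0.99) and under both centrings (0.95 by intronic length and 0.99 by span). Dusp1 in control DN over CD8, at 0.99, passed the limit under some alternatives, among them the removed genes kept (1.08) and span centring (1.03). CD4 cells were at least 2-fold above CD8 cells for Atf3 in control (1.15, where 2.61% of genes were) and for Atf3 (1.38) and Dusp1 (1.32) in IR, where 3.73% of genes were. Between DN and CD4 cells no member reached 2-fold in either condition, where 2.75% (control) and 7.3% (IR) of genes did in either direction. In the main scaling Junb, Jund, Ier2 and Nr4a1 were lower in DN than in CD4 in both conditions. Their log2 ratios were -0.04, -0.12, -0.03 and -0.24 in control and -0.08, -0.06, -0.13 and -0.40 in IR. The removed genes took 38.3% of UMIs in IR CD4 and 30.5% in IR DN. Keeping them in the totals would raise every IR ratio of DN over CD4, and those of Junb, Jund and Ier2 would turn positive. Fosb was lower in control DN (-0.42) and higher in IR DN (0.39), and the other 5 genes were higher in DN in both conditions. Of these, Egr1 in IR, at 0.08, had an interval of -0.01 to 0.17.

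In the main scaling, the ratio of IR over control was smallest in CD8 cells for 7 of the 10 genes. It was largest in DN cells for 6 and in CD4 cells for 4, with Egr1 counted for DN on a gap of 0.0002. These counts changed with the scaling. With the removed genes kept, Junb was at 1.71 in CD4 and 1.85 in DN. Under TMM scaling Egr1 was at 0.63 in CD4 and 0.56 in DN. Against genes of like span, the smallest Fos ratio was in CD4 (-0.03). The gap between DN and CD8 ratios was widest for Dusp1, at 1.07 on the log2 scale, followed by Egr1 (0.70), Jun (0.62) and Fosb (0.46). For Nr4a1, Jund and Ier2 it was 0.02, 0.01 and 0.07. These differences between subsets have no test, and the median ratio over all genes was also lower in CD8 (-0.38) than in DN (-0.26).

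Summed in each cell, the 10 genes made up a larger part of the RNA in IR cells. After thinning to 500 UMIs, which left out no cell, the mean sum was 4.77 UMIs in control CD4 (SD over cells 3.41), 4.14 in control CD8 (3.11) and 4.87 in control DN (3.57). In IR it was 10.7 in CD4 (6.09), 7.96 in CD8 (4.80) and 11.4 in DN (6.22). The log2 ratio of the means was 1.17 in CD4, 0.94 in CD8 and 1.22 in DN, with counting intervals within 0.02 of these values. Junb supplied much of this: with Junb left out, a choice made after seeing the data, the ratios were 0.75, 0.62 and 0.89. With Dusp1 left out they were 1.11, 0.93 and 1.11.

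The difference ran through the distribution. The median cell held 4 UMIs of the 10 genes in each control library, and 10, 7 and 11 UMIs in the IR libraries of CD4, CD8 and DN cells. Cells with no UMI of any of the 10 genes were 5.27%, 6.88% and 5.39% of control and 0.821%, 2.05% and 0.792% of IR cells. Cells with 10 UMIs or more were 9.57%, 6.10% and 10.1% of control and 52.8%, 32.9% and 56.9% of IR cells. The 10% of cells with the highest sums held 25.1% to 26.0% of the UMIs in control libraries and 21.1% to 22.2% in IR libraries. At least 5 of the 10 genes were detected in 13.0%, 9.76% and 14.5% of control cells and in 35.8%, 26.6% and 45.3% of IR cells.

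**Figure D3:**
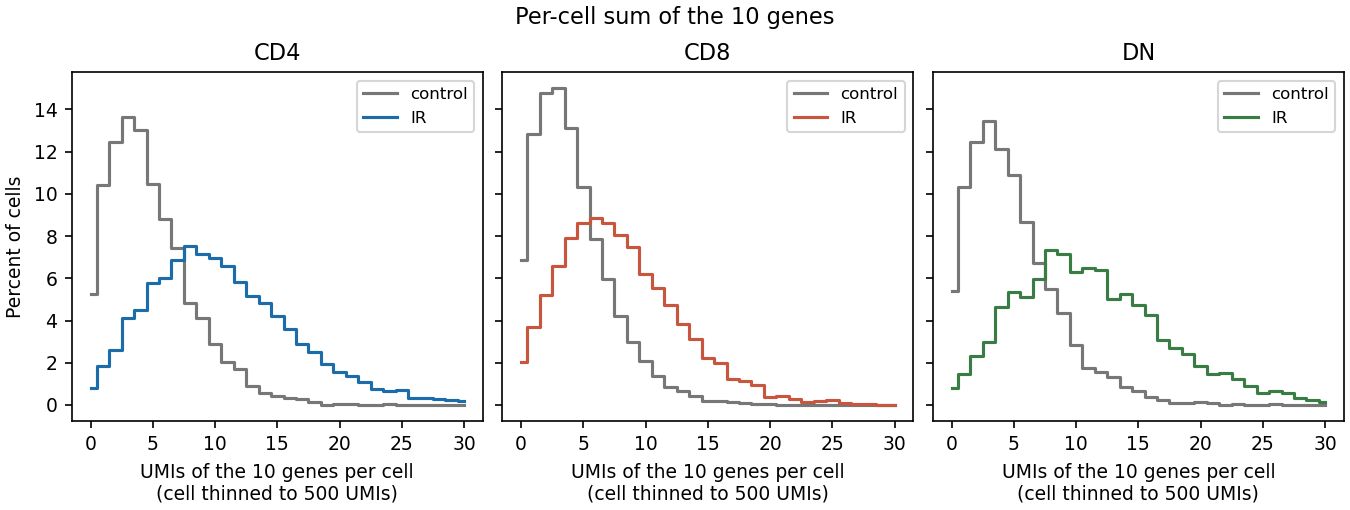
Percent of cells (vertical axis) by the number of UMIs of the 10 genes in the cell, after thinning each cell to 500 UMIs, for control (grey) and IR (coloured) in the 3 subsets. The median moves from 4 UMIs in control to 10 in CD4, 7 in CD8 and 11 in DN cells of IR kidneys.

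Without thinning, with the IR cells shallower, the direction was the opposite: the mean sum was 52.0, 40.1 and 66.3 UMIs in control and 31.8, 15.5 and 24.2 UMIs in IR. From raw sums, fewer molecules in a cell and less capture or sequencing cannot be told apart. Within IR libraries the thinned sum was lower in deeper cells, when cells were ranked by depth and split into 4 equal groups. It was 11.8 UMIs in the shallowest and 8.95 in the deepest group of IR CD4 cells, 8.77 and 6.65 in IR CD8 and 12.0 and 10.6 in IR DN. The mean of the deepest group of each IR library was above the highest group mean of its control, which was 5.28 in CD4, 4.51 in CD8 and 5.10 in DN. The deepest IR groups had a median depth of 2163, 1409 and 1499 UMIs. The shallowest control groups of CD4, CD8 and DN had 2185, 980 and 4520 UMIs, and sums of 4.53, 3.81 and 4.91. In CD4 and DN no control group was as shallow as the deepest IR group. The part of depth in these sums was not tested.

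Clusters hold mostly 1 condition, so few could be compared within. Across clusters with at least 50 cells of a library, the mean thinned sum ran from 2.66 to 5.93 in control CD4 and from 5.95 to 11.8 in IR CD4. It ran from 3.09 to 5.24 and from 5.17 to 10.6 in CD8, and from 2.00 to 5.44 and from 7.89 to 11.8 in DN. In the 5 pairs with at least 50 cells of both conditions in 1 cluster, the log2 ratio of IR over control was 1.03, 1.13 and 0.49 in CD4, 0.45 in CD8 and 1.37 in DN. These pairs rest on as few as 60 cells of a library.

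Between the genes, correlations across cells were weak. Over the 45 pairs the median Pearson r was 0.04 to 0.05 in control libraries and 0.06 to 0.07 in IR libraries. The closest pair, Jun and Jund, had r between 0.13 and 0.24 in the 6 libraries. Across the 6 libraries, which fall into the 2 conditions, Fosb and Jun did not follow the mean of the other members (Pearson r -0.05 and -0.03), and the other 8 did, with r of 0.76 to 0.97. Among 2380 other genes at 50 CPM or more with a 2-fold range, those closest to the mean log2 level of the members were Fth1 (r = 0.9996), Prdx6, Skil, Ube2e3 and Gabpb1. Fth1, the heavy chain of the iron store ferritin, was at 1982, 1598 and 2127 CPM in control CD4, CD8 and DN cells and at 4406, 2994 and 4903.5 CPM in IR. Across cells, among 3358 genes, the 10 closest to the per-cell sum included Hspa1b, Zfp36, Klf2, Nfkbia, Ubb, H3f3b, Ppp1r15a, Btg2 and Dnajb1, with a median r over libraries of 0.13 to 0.17. Hspa1b led only through the control libraries, with r of 0.25 to 0.27 there and 0.03 to 0.09 in IR.

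Other genes of the early response were read from 7 groups of 47 genes in all. At least 2-fold higher in IR were 16 of 41 tested in CD4, 17 of 41 in CD8 and 16 of 40 in DN, and lower were 1, 2 and 0, beside the shares of all genes given above. Of the other AP-1 and ATF subunits, 3 of 6 tested were higher in CD4, 4 in CD8 and 3 in DN. Maff, a small MAF protein, went from 14.9, 8.28 and 14.9 CPM in control CD4, CD8 and DN cells to 139.98 CPM in CD4, 86.8 in CD8 and 134 in DN, with log2 ratios of 3.23, 3.39 and 3.17. Its partner Mafk had ratios of 1.27, 1.67 and 1.34, and Fosl2, a further FOS protein, 0.82, 1.26 and 1.36. Batf, picked after its values were seen, was higher in CD4 (1.22) and CD8 (1.12) and at 0.06 in DN, and Jdp2 was lower in CD8 (-1.0001, on the limit). Fosl1 and Batf3 were below 10 CPM in every library.

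The nuclear receptors related to Nr4a1 did not move with it in every subset. Nr4a3 was at 60.02, 49.5 and 51.1 CPM in control CD4, CD8 and DN cells and at 136, 89.4 and 172 CPM in IR. Its ratios were 1.18, 0.85 and 1.75, past 2-fold in CD4 and DN. Nr4a2 was at 87.9, 271 and 79.2 CPM in control and at 38.5, 103 and 46.3 CPM in IR. Its ratios of -1.19 and -1.40 in CD4 and CD8 passed 2-fold downward, and -0.77 in DN did not. Egr2 and Egr3, relatives of Egr1, were below 10 CPM in every library.

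Of 7 further early-response factors, 4 were higher in CD4, 5 in CD8 and 4 in DN. Csrnp1, a nuclear protein of the early response, was at 20.4, 18.4 and 20.4 CPM in control CD4, CD8 and DN cells and at 245, 193 and 228 CPM in IR, with ratios of 3.59, 3.39 and 3.48. Klf2, which keeps T cells quiescent and recirculating, had ratios of 2.29, 2.31 and 1.55, and Klf4 1.41, 1.02 and 1.42. Klf2 was highest in IR CD8 cells, at 3678 CPM, where most of the 10 genes were lowest among the IR libraries.

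Among 7 other MAP kinase phosphatases, Dusp5, which acts on nuclear ERK, was higher in all 3 subsets, from 152, 99.9 and 184 CPM in control to 463, 302.5 and 543 CPM in IR CD4, CD8 and DN. Its ratios were 1.605, 1.598 and 1.56. Dusp4, picked after its values were seen, passed 2-fold in CD8 (1.17), at 11.6 CPM. Dusp2, Dusp6, Dusp10 and Dusp16 stayed below 2-fold in each subset, with ratios between -0.27 and 0.84. Dusp8 was below 10 CPM in every library.

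Of the decay and anti-proliferative genes, 2 of 5 were higher in each subset. Zfp36, whose protein marks AU-rich messages such as those of Fos for decay, had ratios of 1.94, 1.78 and 1.78, and Btg1 2.02, 1.89 and 1.79. Of 6 stress feedback genes, 5 were higher in CD4, 4 in CD8 and 5 in DN. Nfkbia, which encodes the NF-κB inhibitor IκBα, went from 439, 436 and 462 CPM in control to 2297, 1295 and 2142 CPM in IR. Its ratios were 2.39, 1.57 and 2.21, those of Gadd45b 2.39, 1.62 and 2.42, and those of Tnfaip3 1.22, 0.70 and 1.75. These 3 had their smallest ratio in CD8, whereas Gadd45a (1.66, 1.39 and 1.28) and Sgk1 (1.78, 1.29 and 1.23), added after their values were seen, had it in DN.

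Upstream of the response nothing reached 2-fold. Of 10 kinases and factors, 9 were tested in each subset and none was called. Srf had ratios of -0.05, -0.19 and 0.30, and Creb1 0.26, 0.13 and 0.58. Srf was low, at 12.9 to 17.1 CPM across the 6 libraries.

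**Figure D4:**
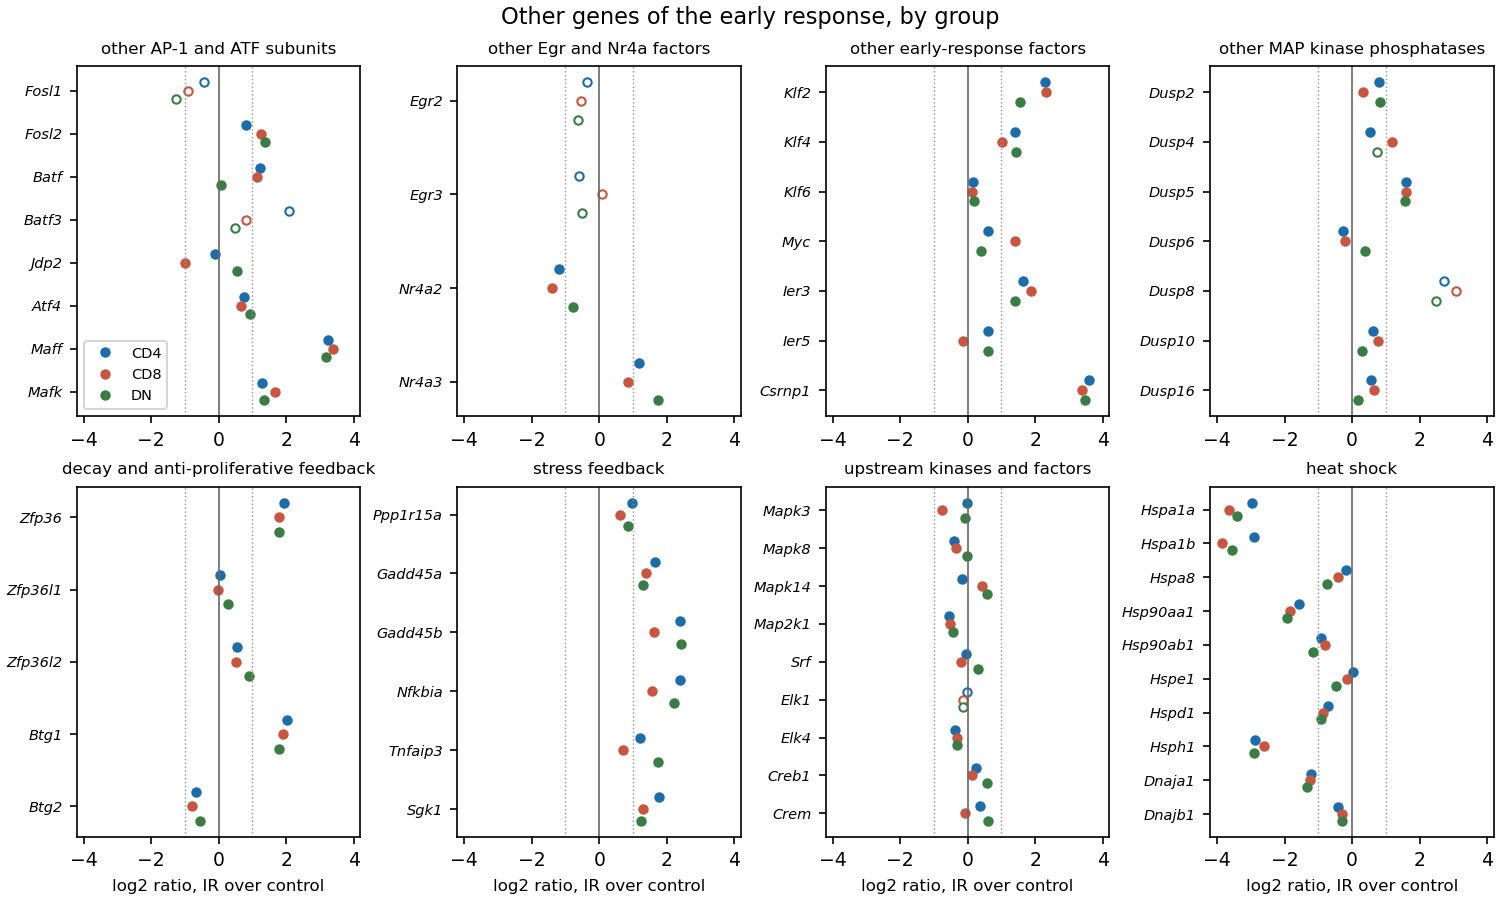
Log2 ratio of CPM, IR over control (horizontal axis), for other genes of the early response by group and for heat shock genes, with 1 point per subset. Open points are below 10 CPM in both libraries and dotted lines mark 2-fold. Maff and Csrnp1 lie above 3 in all subsets, the upstream kinases and factors shown stay within 2-fold, and Hspa1a, Hspa1b and Hsph1 lie below -2.

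Among heat shock chaperones, another stress response, none of 10 was at least 2-fold higher in IR, and 5, 5 and 6 were at least 2-fold lower in CD4, CD8 and DN, beside 15.1%, 17.7% and 11.3% of all genes. The rest stayed within 2-fold, such as Hspe1 (0.04, -0.14 and -0.48) and Dnajb1 (-0.42, -0.30 and -0.30). Hspa1b had ratios of -2.92, -3.84 and -3.56, Hspa1a -2.96, -3.64 and -3.42, and Hsph1 -2.89, -2.62 and -2.91. Since Hspa1a and Hspa1b are almost the same in sequence, how their counts divide between them is uncertain. The thinned heat shock sum per cell was 5.76 to 6.46 UMIs in control and 2.18 to 3.01 UMIs in IR. Across cells its Pearson r with the sum of the 10 genes was 0.30 to 0.33 in the control libraries and 0.08 to 0.11 in the IR libraries, a description over cells that share a library.

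Genes listed as markers of several other cell types moved with the condition, but the NK and γδ lists are not confined to those cells. The NK list holds Klrb1c, which the paper uses to mark a subset of DN T cells. The γδ list holds γ chain constant genes, and the paper reports the γ chain gene Trgv2 as higher in DN than in CD4 and CD8 cells. The 7 myeloid markers summed to 13.8, 7.99 and 2.27 CPM in control CD4, CD8 and DN cells and to 102, 19.7 and 17.6 CPM in IR, with S100a8 at 0 in control CD8 and DN, S100a9 at 0 in control CD8 and Adgre1 at 0 in IR DN. The 4 erythroid markers, all detected in each library, summed to 1.16 to 1.28 CPM in control and 20.06 to 27.5 CPM in IR. The 4 B cell markers summed to 1.91 to 11.8 CPM in control and 11.5 to 26.2 CPM in IR. The 4 NK cell markers were also higher in IR in each subset, going from 62.5 to 142 CPM in CD4, from 253 to 617 CPM in CD8 and from 304 to 382 CPM in DN. The 4 γδ T cell markers were lower in each, at 63.5, 23.5 and 212 CPM in control and 45.4, 11.2 and 133 CPM in IR, with Trdv4 at 0 in IR CD8 and DN. The 4 endothelial markers lay at 45.5 to 129 CPM in control and 46.5 to 102 CPM in IR, and the 6 tubule markers at 1.79 to 2.81 and 2.02 to 3.19 CPM. The part of the myeloid, NK, γδ, erythroid and B cell markers in the members' levels was not tested. Cells with 2 or more myeloid UMIs were few, 13 to 40 in a control library and 5 to 30 in an IR library, and leaving them out changed no count of called members. Had the non-T barcodes been kept, they would have held 0.0332% to 0.0501% of the UMIs of the 10 genes in the control libraries and 0.27% to 0.855% in the IR libraries. For Atf3 the part was larger, with 122 UMIs in the non-T barcodes of the IR libraries beside 1059, 169 and 436 UMIs in the IR CD4, CD8 and DN cells.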

How the data were processed

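The 6 libraries were 10x Genomics 3′ single-cell RNA sequencing of sorted T cells, grouped by sample title. The deposited matrices hold raw UMI counts by gene and barcode; the authors ran Cell Ranger on mm10 and did not normalize these counts. The methods and the submitters' processing notes name version 6.0.1, and the file headers 5.0.1 for control and 6.0.1 for IR. The methods give default settings and do not name the treatment of intronic reads.

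Barcodes with under 500 features, over 20% mitochondrial UMIs or among the 5% with the most UMIs of a library (as likely doublets; no caller was run) were removed, leaving 48277 of 54039. Clustering used scanpy 1.11.5 (2000 variable genes, 30 components, 15 neighbours, Leiden resolution 1, without batch correction) into 24 clusters, and 339 barcodes of clusters with Cd3 UMIs in under 50% of cells were removed. Counts were pooled per library over retained features (104 mitochondrial, ribosomal protein and Malat1 features left out; 4386054 to 60769969 UMIs), scaled to CPM and compared as log2 ratios with exact 95% Poisson intervals. Shares have exact Clopper-Pearson intervals. Both cover counting error only. Counts of 0 were set to 3 in ratios. Cells were thinned without replacement to 500 UMIs. With 1 library in each group, nothing was tested. The rule for further named genes took up to 3 genes of each group of related genes, by the largest DN ratio past 2-fold, and the genes most like the members by correlation. The members and lists were chosen with earlier results of these data known.

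Gene structures came from GENCODE M21 (GRCm38), which matched 32158 of 32285 features. Alternatives were TMM (edgeR 4.0.16), other barcode filters, removed features kept, thinning, a mean over cells, barcodes shared between libraries or with myeloid UMIs left out, other CPM limits and centring by intronic length. Centring by transcript span and leaving out Junb were added after seeing the data. The scripts were tested on simulated counts. Values of a few genes of the lists are not reported here.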

Additional observations from a re-analysis of the deposited data

Results flagged for a closer look

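Fosb and Egr1 differed in direction between subsets, and neither difference was tested. Fosb had log2 ratios of IR over control of -0.63 in CD4 and -0.28 in CD8, and 0.17 in DN. Egr1 had 0.60 in CD4 and 0.60 in DN, and -0.10 in CD8. With 1 library per group these directions rest on single libraries, and the Fosb values in CD8 and DN and the Egr1 value in CD8 changed sign under some alternatives.

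The 339 non-T barcodes, which enter none of the main comparisons of IR and control, held the genes as well. In the 303 barcodes of IR libraries the 10 genes summed to 6156 CPM (95% interval 5919 to 6400.4), and in the 36 barcodes of control libraries to 5055 CPM (4658 to 5476). Fos was at 1628 CPM in IR and 928 CPM in control, Fosb at 394 and 211 CPM, and Nr4a1 at 165 and 25.3 CPM, the last from 3 UMIs. Atf3 was at 296 CPM in the IR barcodes (95% interval 246 to 354). It had no UMI in the control barcodes, where the interval reaches 31.1 CPM. With the control set to 3 counts, or 25.3 CPM, the ratio was 11.7-fold, which is not a lower bound. Junb, by contrast, was at 743 CPM in IR and 819 CPM in control. These barcodes mix cell types, and their numbers per library are small.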

How the results depend on the processing

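No paired analysis was possible because each group is 1 library and its labels carry no replicate number. The counts of members at least 2-fold apart stayed within 1.5 times of the reported counts under all alternatives run, for these comparisons: 4 to 6 in CD4, 4 to 6 in CD8 and 4 to 5 in DN for IR against control, and 0 for DN against both other subsets. Of the calls behind them, Atf3 in CD4 and Dusp1 in CD8 were lost with the removed genes kept (0.85 each), and Fosb in CD4 (-1.06, intronic centring) and Jun in CD8 (-1.02, removed genes kept) were added as lower. Between single pairs of subsets, Dusp1 (control) and Fosb (IR, 1.15 with the removed genes kept) were added in DN over CD8 under some alternatives, and Jun (IR) was lost. With span centring the count in DN over CD8 went from 1 to 2 in control and from 3 to 2 in IR. Jund and Atf3 lay close enough to 2-fold in CD8 and DN to pass it under some settings. TMM scaling moved the median ratio of all genes by 0.10 in CD8, and by 0.03 and -0.04 in CD4 and DN.

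The log2 ratio of the per-cell sum (1.17, 0.94 and 1.22 in CD4, CD8 and DN) reversed with no thinning, to -0.71, -1.37 and -1.45. Thinned to 1000 retained UMIs it was 1.14, 0.76 and 1.14, and to 1000 UMIs of all genes 0.81, 0.48 and 1.02. Without Dusp1 it was 1.11 in CD4 and 1.11 in DN, and without Junb 0.75, 0.62 and 0.89. Thinning to 1000 retained UMIs left out 3677 of the IR CD8 cells and 1941 of the IR DN cells. Depth limits Atf3 most, with 169 UMIs in IR CD8. With 1 library per group, no alternative tests whether a difference exceeds that between mice, sorts or runs.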
